A study of Mus musculus with 6 samples.

Results

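The genes described here are those of the kinin system and of the peptidases, other than angiotensin-converting enzyme, that cut angiotensin peptides: Kng1, Bdkrb1, Bdkrb2, Enpep, Anpep, Mme, Lnpep, Prcp, Thop1 and Nln. They were found by matching the transcript accession of each array probe to RefSeq. This gave 14 probes for the 10 genes, of 55681 probes on the array, of which 26762 were named, for 20284 genes. Kng1, Mme, Prcp and Nln had 2 probes each and the other 6 genes had 1. The samples are cultures of mouse spermatogonial stem cells, from which sperm production is maintained, grown on mouse embryonic fibroblasts, which serve as feeder cells. The captopril group received captopril, labelled 0.01 M, for 24 h, and the water group received sterile water for 24 h. The labels write 0.01 M beside the water as well, and what that number refers to is not settled. RNA of 3 captopril and 3 water cultures, described as independent experiments and numbered 2, 3 and 4 in both groups, was measured on 6 single-colour Agilent arrays. The strain and age of the animals, and whether the cultures came from separate animals, are not given in the sources used here, so p-values measure the spread between these cultures.

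Kininogen, the product of Kng1, is a secreted protein from which kallikreins release bradykinin, a short peptide that dilates vessels. Bradykinin and its shortened forms act through a constitutive receptor, Bdkrb2, and an inducible one, Bdkrb1. Angiotensin-converting enzyme (ACE) degrades bradykinin and makes angiotensin II, so captopril, which inhibits it, acts on both peptide systems. The peptidases described here form the other routes. Enpep, Anpep and Lnpep are aminopeptidases, which shorten peptides from the amino end, while Mme, Prcp, Thop1 and Nln cut further along the peptide, and several of them also cut bradykinin. The arrays measure transcripts and not the activity of any of these enzymes.

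Each level below is log2 of the spot signal relative to the 75th percentile of its own array, so that 0 stands for that percentile. It was 1885 to 3281 signal units on captopril arrays and 1875 to 3424 on water arrays. Differences are captopril minus water on this log2 scale, tested with limma, a linear model that shares its variance estimate across genes. Genes were tested where a probe was well above background, by the scanner program's flag, on at least 3 arrays. Water replicate 3 stood apart, with correlations of 0.878 to 0.893 with the other arrays, where those 5 correlated at 0.97 to 0.991 with each other. Differences are therefore given with and without it. That second comparison was chosen with these data known, and it sets 3 captopril arrays against 2 water arrays. All 17 spermatogonial markers and all 18 fibroblast markers that were checked were above background on at least 5 of the 6 arrays. The RNA thus holds transcripts of both cell types, and fewer cells of a type cannot be told apart from less RNA per cell. The summed level of the fibroblast markers was 201 to 242 times the 75th percentile on captopril arrays and 209 to 394 times on water arrays, with the 394 on water replicate 3. The spermatogonial sum was 105 to 132 on captopril arrays and 98.4 to 129 on water arrays. Of 9 Sertoli cell markers 6 were tested, with sums of 4.78 to 6.59 with captopril and 5 to 9.72 in water, and Amh and Fshr were never above background. Of the Leydig cell markers Star was above background on all 6 arrays, at −4.50 to −4.01 with captopril and −4.09 to −2.91 in water, and Cyp17a1, Cyp11a1, Hsd3b1 and Lhcgr on none.

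Of the 10 genes, 7 were measured well enough to be tested: Kng1, Enpep, Anpep, Lnpep, Prcp, Thop1 and Nln, all on all 6 arrays. Bdkrb1, Bdkrb2 and Mme were not. The promoter sequences of RefSeq (assembly GRCm38.p6) are shown for a gene of each kind, to set detected beside undetected genes. The 250 bases before the transcription start are given for Nln (chr13:104109615-104109864, minus strand), Enpep (chr3:129332750-129332999, minus strand) and Bdkrb2 (chr12:105562922-105563171, plus strand). CG pairs are in capitals, counted on the strand shown, which is the same count on the other strand.
Nln: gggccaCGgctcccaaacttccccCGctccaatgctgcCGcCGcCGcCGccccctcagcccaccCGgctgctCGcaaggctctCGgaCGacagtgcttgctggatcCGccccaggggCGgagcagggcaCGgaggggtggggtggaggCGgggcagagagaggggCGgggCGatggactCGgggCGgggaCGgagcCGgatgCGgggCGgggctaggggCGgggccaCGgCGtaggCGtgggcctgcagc
Enpep: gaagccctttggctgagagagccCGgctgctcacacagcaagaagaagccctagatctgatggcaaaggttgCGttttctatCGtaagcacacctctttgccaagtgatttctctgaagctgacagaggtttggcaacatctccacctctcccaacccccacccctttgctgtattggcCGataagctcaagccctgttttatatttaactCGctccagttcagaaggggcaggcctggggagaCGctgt
Bdkrb2: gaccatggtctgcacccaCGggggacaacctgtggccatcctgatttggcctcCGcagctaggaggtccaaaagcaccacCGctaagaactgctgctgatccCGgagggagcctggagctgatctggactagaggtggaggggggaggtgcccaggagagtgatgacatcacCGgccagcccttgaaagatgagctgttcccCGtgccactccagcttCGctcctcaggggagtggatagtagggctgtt

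Nln and Enpep were above background on all 6 arrays and Bdkrb2 on none. The window of Nln holds 26 CG pairs, a count that 9.59% of the 32851 promoters in the table reach. The window of Enpep holds 6, which 50.4% of promoters reach, and that of Bdkrb2 holds 7, which 46.3% reach. The counts of the other measured genes with an entry were 25 for Lnpep, 23 for Anpep, 17 for Thop1 and 11 for Prcp. Mme has 3 entries, with 2, 27 and 27 pairs, and Kng1 and Bdkrb1 have none. Enpep, with fewer pairs than Bdkrb2, was detected throughout, so among the 8 genes with an entry the CG count did not separate measured from unmeasured genes. These counts describe sequence only.

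Kng1 had the smallest p of the group, and only when water replicate 3 was left out. Its main probe, for transcript NM_023125, read 2372, 2189 and 1706 signal units on captopril replicates 2, 3 and 4, against 1472, 2257 and 1573 on water replicates 2, 3 and 4. The scanner program put the error of these readings at 148 to 238 units. As levels these were −0.47, −0.34 and −0.14 with captopril, against −0.93, 0.27 and −1.12 in water. All captopril arrays thus lay above water replicates 2 and 4, and water replicate 3 lay above all captopril arrays. Over 6 arrays Kng1 averaged −0.32 ± 0.16 with captopril and −0.59 ± 0.75 in water (SD, n = 3 each), a difference of 0.28 (SE 0.39, 95% interval −0.64 to 1.19, limma adjusted p = 0.814). Without water replicate 3 the difference was 0.71, or 1.63-fold, with a 95% confidence interval of 0.32 to 1.1 (SE 0.16, limma adjusted p = 0.0956). This does not pass the 0.05 threshold. The other probe of Kng1, for transcript NM_001102411, was above background on water replicate 3 alone, so the difference rests on 1 probe. Kng2, the other kininogen gene, also on chromosome 16, has its own probe, and the files do not hold the probe sequences that would show whether each probe is specific.

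Kng2 did not follow water replicate 3 upward. It stood at −1.97, −2.24 and −2.16 on captopril replicates 2, 3 and 4, against −2.54, −2.75 and −2.51 on water replicates 2, 3 and 4. The groups thus did not overlap, with captopril higher, as in 10.1% of all genes over 6 arrays and 27.2% without water replicate 3. The difference of Kng2 was 0.48 over 6 arrays (SE 0.21, limma adjusted p = 0.611) and 0.41 without water replicate 3 (SE 0.15, limma adjusted p = 0.221), neither past the threshold. The lowest level of Kng2 and the highest level of Kng1 were thus on the same array. On that array 24.1% of all genes were lowest and 54.8% were highest.

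Neither kinin receptor was detected. The probe of Bdkrb1 read 61, 39 and 38 signal units on captopril replicates 2, 3 and 4, against 41, 37 and 28 on water replicates 2, 3 and 4. That of Bdkrb2 read 17, 15 and 14 with captopril, against 12, 15 and 20 in water. For comparison, the lowest signal flagged well above background was 65 to 85 units on captopril arrays and 60 to 97 on water arrays, and the median of all probes not above background was 17 to 24 units. Levels of these genes can therefore be stated only as not well above background on any of the 6 arrays, and no difference between groups can be read from them.

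**Figure D1:**
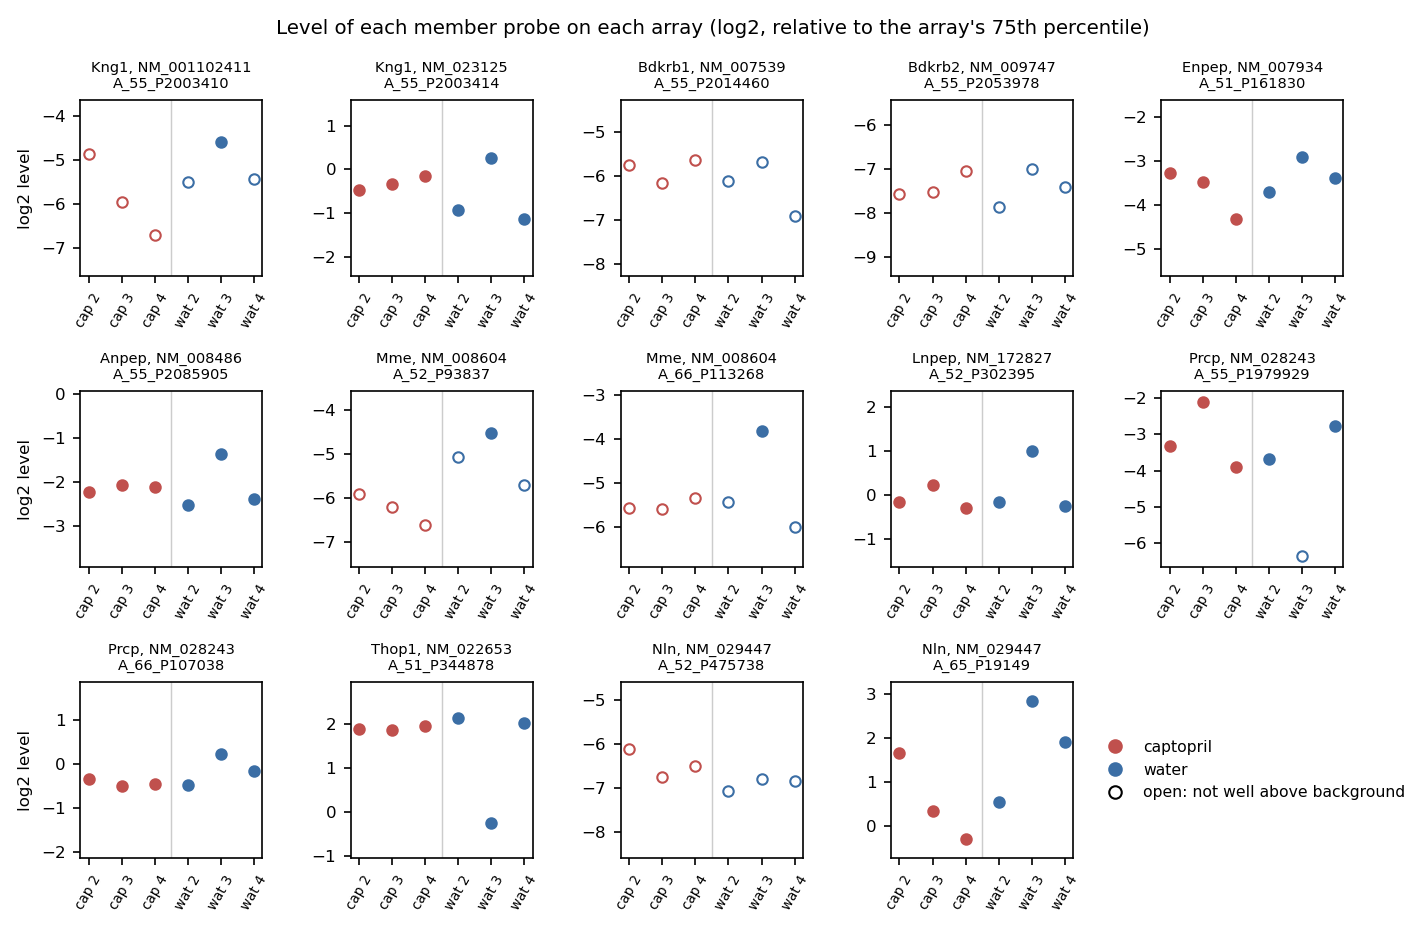
Level of each of the 14 probes on each array (log2 relative to the 75th percentile of the array), with captopril arrays in red on the left of each panel and water arrays in blue on the right. Filled points were well above background and open points were not, and each panel has its own vertical range. By the brightest probe of each gene, water replicate 3 is the highest array for 6 of the 7 measured genes and the lowest for Thop1.

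The 3 aminopeptidases were all measured on all 6 arrays. Enpep, aminopeptidase A, turns angiotensin II into angiotensin III. Its levels were −3.27, −3.48 and −4.32 on captopril replicates 2, 3 and 4, against −3.70, −2.91 and −3.39 on water replicates 2, 3 and 4. Captopril replicate 4 was the lowest array, at 95 signal units with an error of 18, and the groups overlapped. The difference was −0.36 over 6 arrays (SE 0.35, limma adjusted p = 0.728) and −0.15 without water replicate 3 (SE 0.31, limma adjusted p = 0.817). The 95% interval of the second difference, −0.89 to 0.60, leaves room for changes in either direction.

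Anpep, aminopeptidase N or CD13, acts after Enpep and is also a surface antigen of fibroblasts and myeloid cells. It stood at −2.23, −2.07 and −2.12 on captopril replicates 2, 3 and 4, against −2.52, −1.36 and −2.39 on water replicates 2, 3 and 4. The pattern over arrays was that of Kng1, with captopril above water replicates 2 and 4 and below water replicate 3. The difference was −0.05 over 6 arrays (SE 0.34, limma adjusted p = 0.968) and 0.31 without water replicate 3 (SE 0.14, 95% interval −0.03 to 0.65, limma adjusted p = 0.296). The sign of Anpep therefore turned with a single array.

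Lnpep, the insulin-regulated aminopeptidase that binds angiotensin IV, stood at −0.17, 0.23 and −0.29 on captopril replicates 2, 3 and 4, against −0.16, 1.01 and −0.25 on water replicates 2, 3 and 4. The captopril arrays spread around water replicates 2 and 4, and water replicate 3 was 1.14 above the mean of the other 5 arrays, a distance that 9.88% of genes reached. The difference was −0.27 over 6 arrays (SE 0.38, limma adjusted p = 0.812) and 0.13 without water replicate 3 (SE 0.19, limma adjusted p = 0.719). Enpep, Anpep and Lnpep were all highest on water replicate 3, as were 54.8% of all genes. The summed markers of every list that was checked, except the spermatogonial one, were also highest there. The spermatogonial sum was 129 there and 132 on captopril replicate 4. The median spermatogonial marker lay 0.36 above its own median over the arrays on water replicate 3, and 0.23 above it on captopril replicate 4. The part of feeder cells in the levels of these 3 genes was not tested.

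Mme, neprilysin or CD10, was above background on a single array. Its probes read 69, 58 and 47 signal units, and 54, 38 and 19, on captopril replicates 2, 3 and 4, against 65, 132 and 53, and 83, 81 and 65, on water replicates 2, 3 and 4. Both probes were flagged as well above background on water replicate 3 and on no other array. Mme entered no test, and its level in the captopril group is known only as not well above background.

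Of the remaining peptidases Prcp, by its brighter probe, had the narrowest range of the 7 measured genes over the 6 arrays, 1.66-fold. Thop1 and Nln had the widest, 5.23-fold and 8.86-fold. The dimmer Prcp probe ranged more widely, from −6.36 to −2.11. Prcp encodes a lysosomal carboxypeptidase that removes the last residue of angiotensin II and III. Its brighter probe read −0.34, −0.50 and −0.44 on captopril replicates 2, 3 and 4, against −0.47, 0.23 and −0.15 on water replicates 2, 3 and 4. The difference was −0.30 over 6 arrays (SE 0.25, limma adjusted p = 0.678) and −0.11 without water replicate 3 (SE 0.16, 95% interval −0.50 to 0.27, limma adjusted p = 0.711). The captopril arrays lay close together, with an SD of 0.08, and overlapped the water arrays.

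The dimmer Prcp probe did not show the same pattern. It read −3.32, −2.11 and −3.91 on captopril replicates 2, 3 and 4, against −3.68, −6.36 and −2.76 on water replicates 2, 3 and 4. On water replicate 3 it was not above background, at 23 signal units, while the brighter probe had its highest level there. In the test across all probes its difference was 1.16 over 6 arrays (SE 0.95, limma adjusted p = 0.619) and 0.11 without water replicate 3 (SE 0.52, limma adjusted p = 0.921). The probes of Prcp thus gave opposite signs in both comparisons, none past the threshold, which 0% of all 32387 probes passed over 6 arrays and 0.281% without water replicate 3.

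Thop1, thimet oligopeptidase, is a mainly cytosolic enzyme known from brain and testis. It read 12117, 10123 and 7300 signal units on captopril replicates 2, 3 and 4, against 12342, 1581 and 13752 on water replicates 2, 3 and 4. The error of the reading on water replicate 3 was 159 units, so its gap to the other arrays was far larger than the error of the reading. As levels these were 1.89, 1.86 and 1.95 with captopril, against 2.14, −0.25 and 2.01 in water. The difference was 0.60 over 6 arrays (SE 0.61, limma adjusted p = 0.734) and −0.17 with water replicate 3 left out (SE 0.14, 95% interval −0.51 to 0.16, limma adjusted p = 0.525). The 3 captopril arrays were then all below the 2 water arrays, by a small amount, and Thop1 had an SD of 0.05 over the captopril arrays, which 95.6% of genes reached or exceeded.

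Nln, neurolysin, is the closest relative of Thop1 among these genes, and by the brightest probe of each gene its level varied most. Its bright probe read 10280, 3496 and 1528 signal units on captopril replicates 2, 3 and 4, against 4090, 13464 and 12926 on water replicates 2, 3 and 4. The levels were 1.65, 0.33 and −0.30 with captopril, against 0.55, 2.84 and 1.92 in water, a range of 8.86-fold. Replicates of both groups lay far apart and the groups overlapped. The difference was −1.21 over 6 arrays (SE 0.69, 95% interval −2.83 to 0.41, limma adjusted p = 0.630), the furthest from 0 of the 7 genes and the least precise. Without water replicate 3 it was −0.67 (SE 0.61, limma adjusted p = 0.563). The other probe of Nln was above background on no array, at 17 to 48 signal units, so the level and its spread rest on 1 probe.

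Taking the 7 tested genes as a group, none passed the test in either comparison. Over 6 arrays limma called 0 of 7 at an adjusted p under 0.05, as it called 0 of all 14867 genes (0%), and at an unadjusted p under 0.05 it had 0 of 7, against 8.25% of all genes. In 0 of the 7 did the captopril and water arrays separate without overlap, against 21.5% of all genes, 10.1% with captopril higher and 11.4% with captopril lower. Of the 7 differences 2 were positive and 5 negative, with a median of −0.27, where the median over all genes was −0.03.

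Without water replicate 3 limma again called 0 of 7, against 0.619% of all genes, or 92 of 14867. At an unadjusted p under 0.05 there was 1 of 7, Kng1, against 19.1% of all genes. The groups did not overlap in Kng1 and Anpep, where captopril was higher (27.2% of all genes), and in Thop1, where it was lower (15.7%). That makes 3 of 7, against 42.9% of all genes, a share near that background. The differences were positive in 3 and negative in 4, with a median of −0.11, against 0.07 over all genes.

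**Figure D2:**
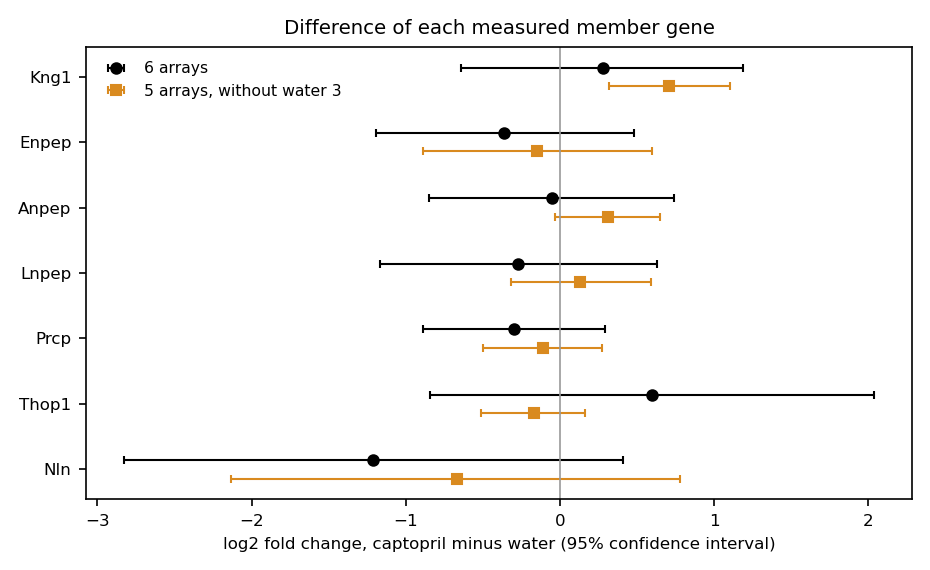
Difference of each measured gene (log2, captopril minus water) with its 95% confidence interval from limma. Black circles are the comparison of 6 arrays and orange squares that of 5 arrays without water replicate 3. The interval of Kng1 in 5 arrays, 0.32 to 1.1, is the one that leaves out 0, and its adjusted p of 0.0956 does not pass the threshold.

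All arrays lay on 1 slide, and slide row 2 held the captopril arrays and, of the water arrays, replicate 4. Within that row the differences were 0.80 for Kng1, −0.30 for Enpep, 0.24 for Anpep and 0.18 for Lnpep. They were −0.27 for Prcp, −0.10 for Thop1 and −1.36 for Nln. These values carry no spread between water arrays, and the same values were obtained with the row as a block.

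The genes differed in how far single arrays lay from the rest. On water replicate 3, 6 of the 7 genes had their highest level, and 54.8% of all genes did. Thop1 had its lowest there, with 24.1% of all genes. Nln lay 2.02 above the mean of the other arrays on water replicate 3, and 0.545% of genes lay as far above. Thop1 lay at −2.22 against that mean, and 7.08% of genes lay as far below. The SD of Nln over the 3 captopril arrays was 1.00, which 0.915% of genes reached, against a median of 0.204 over all genes. Enpep had an SD of 0.55 there, which 6.07% of genes reached. Enpep, Lnpep and Nln were all lowest on captopril replicate 4, the array on which 17.1% of all genes were lowest. The captopril SD of Anpep and of the brighter Prcp probe, 0.08 each, was among the smaller ones, with 87.9% and 88.6% of genes at or above it. The dimmer Prcp probe had a captopril SD of 0.92.

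**Figure D3:**
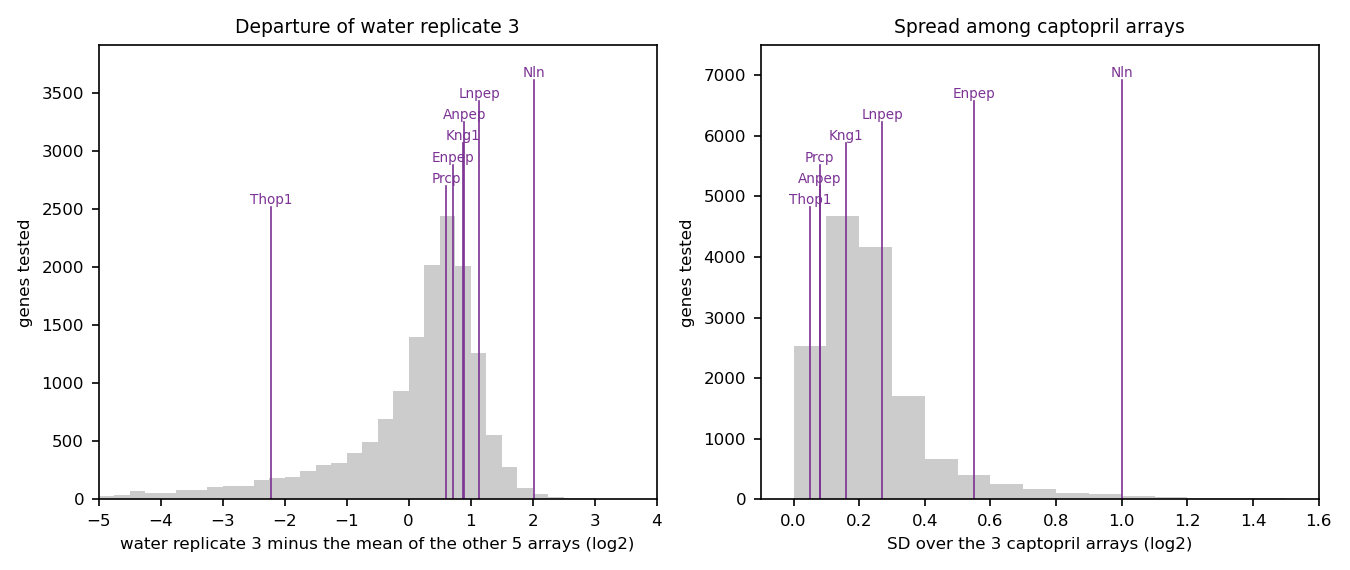
Histograms over all genes tested (grey) of the level on water replicate 3 minus the mean of the other 5 arrays (left, log2) and of the SD over the 3 captopril arrays (right, log2), with the 7 measured genes as purple lines whose heights only separate the names. Nln lies at the right end of both, at 2.02 and 1.00, and Thop1 lies at −2.22 on the left and 0.05 on the right.

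Some other genes that make the peptides were not detected. Of the 57 other genes of the angiotensin and kinin systems and of the peptidase families that were listed, 56 had a probe and 39 could be tested. Among them, 6 of 12 genes on the list of the angiotensin system and 2 of 6 on that of kinin release could be tested. The angiotensin precursor gene Agt and the renin gene Ren1 were above background on no array. The same held for Klk1 and Klkb1, which encode kallikreins that release kinins, and for F12, the clotting factor that starts plasma kinin release. Ren1, Klkb1 and F12 were picked for naming after their values were seen. Kininogen transcripts were thus measured where neither these kallikreins nor the receptors were above background. Ace itself stood at −3.16, −2.95 and −2.67 on captopril replicates 2, 3 and 4, against −2.90, −3.00 and −3.33 on water replicates 2, 3 and 4. Its difference was 0.15 over 6 arrays (SE 0.24, limma adjusted p = 0.846) and 0.18 without water replicate 3 (SE 0.21, limma adjusted p = 0.647).

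Among the 39 tested genes, Agtr2, which encodes the type 2 receptor of angiotensin II, was the one past the threshold, and only without water replicate 3. It was above background on all 3 water arrays and on 0 captopril arrays, so it entered the test only through the group in which it was high, and its p is no independent support. Its captopril level was set to the lowest signal flagged well above background on each array. It was then 3.37-fold lower with captopril without water replicate 3 and 4.48-fold lower over 6 arrays. A probe can read above that signal without the flag, and the spread of the water arrays is left out, so these are not strict bounds. As measured, its limma adjusted p was 0.0360 without water replicate 3 and 0.455 over 6 arrays. Without water replicate 3 the call of Agtr2 was lost with quantile normalization, scaling by the array median or no filter on dim probes. It was also lost when captopril replicate 3, captopril replicate 4, water replicate 2 or water replicate 4 was left out as well, since 0 genes were then called. Agtr1a, the main receptor of angiotensin II, differed by −0.37 over 6 arrays (SE 0.30, limma adjusted p = 0.669) and by −0.11 without water replicate 3 (SE 0.20, limma adjusted p = 0.770).

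Genes on a list of kinin-cleaving carboxypeptidases and other peptidases had positive differences in 10 of 11 cases once water replicate 3 was left out. The list was not limited to enzymes that cut kinins. A positive difference was found in 58.5% of all genes, and 0 of the 11 listed genes passed the test, against 0.619% of all genes. Their median difference was 0.35, against 0.07 over all genes, and over 6 arrays it was 0.19 with 8 positive and 3 negative values, where 46.7% of all genes were positive. In 8 of the 11 the captopril arrays lay above both remaining water arrays, against 27.2% of all genes, and in 1, Prep, below them, against 15.7%. Ece1, an endothelin-converting enzyme that also cuts bradykinin, stood at −0.62, −0.54 and −0.65 on captopril replicates 2, 3 and 4, against −1.21, −4.60 and −1.28 on water replicates 2, 3 and 4. Its difference was 0.64 without water replicate 3 (SE 0.14, limma adjusted p = 0.0855) and 1.76 over 6 arrays (SE 0.86, limma adjusted p = 0.617), where its probe was not above background on water replicate 3. Cpm, a membrane carboxypeptidase that trims kinins into ligands of the inducible receptor, differed by 0.75 without water replicate 3 (SE 0.22, limma adjusted p = 0.150) and by 0.46 over 6 arrays (SE 0.33, limma adjusted p = 0.646), where the groups overlapped. Cpd, a carboxypeptidase of the secretory pathway, differed by 0.20 without that array and by 0.02 over 6 arrays. Xpnpep1, which removes the first residue of bradykinin, turned its sign, at 0.11 without that array and −0.15 over 6 arrays. Dpp3, a dipeptidyl peptidase that cuts angiotensin peptides, differed by 0.28 without that array and by 0.19 over 6 arrays. Prep, a prolyl endopeptidase, differed by −0.27 without that array and by −0.78 over 6 arrays. For Cpd, Xpnpep1, Dpp3 and Prep the adjusted p by limma were 0.383 to 0.701 without water replicate 3 and 0.630 to 0.982 over 6 arrays.

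**Figure D4:**
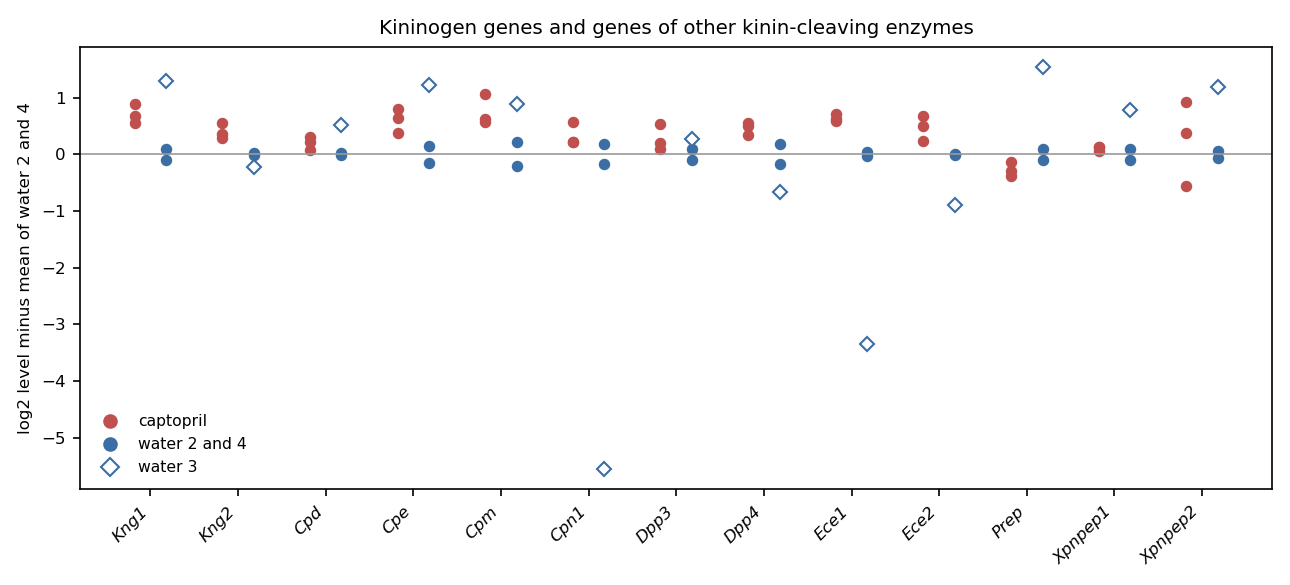
Levels of Kng1, Kng2 and 11 genes of kinin-cleaving carboxypeptidases and other peptidases (log2, each gene relative to the mean of water replicates 2 and 4). Captopril is in red, water replicates 2 and 4 are in blue and water replicate 3 is shown as open diamonds. Captopril arrays lie above 0 for most genes and below it for Prep. Water replicate 3 lies far above 0 for Kng1, Prep, Cpe and Xpnpep2, far below it for Ece1 and furthest below it for Cpn1. The probes of Ece1 and Cpn1 were not above background on that array.

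Relatives of the peptidases gave mixed values. In the family of Enpep, Anpep and Lnpep, 5 other genes were tested, with a median of −0.13 over 6 arrays and 0.06 without water replicate 3. At an unadjusted p under 0.05 by limma, 1 of the 5 was lower over 6 arrays, against 8.25% of all genes in either direction. Without water replicate 3, 1 of the 5 was higher, against 19.1% in either direction. Npepps, a cytosolic aminopeptidase, differed by −0.30 over 6 arrays and by −0.34 without that array. Mmel1, the relative of Mme, stood at −0.19, 0.06 and 0.34 on captopril replicates 2, 3 and 4, against −0.46, −0.15 and −0.79 on water replicates 2, 3 and 4. Its difference was 0.54 over 6 arrays (SE 0.27, limma adjusted p = 0.617) and 0.70 without water replicate 3 (SE 0.20, limma adjusted p = 0.152). Unlike Mme, it was measured in both groups. Mipep, the mitochondrial relative of Thop1 and Nln, stood at −2.54 on water replicate 3 and at 0.04 to 0.45 on the other 5 arrays, so that, as for Thop1, that array was far below the rest. Its difference was 0.94 over 6 arrays (SE 0.73, limma adjusted p = 0.655) and 0.01 without that array (SE 0.17, limma adjusted p = 0.968). All 12 genes on a list for kinin receptor signalling inside the cell were tested, and 0 passed. Of all genes, 0% passed over 6 arrays and 0.619% without water replicate 3. The median of the 12 was −0.06 over 6 arrays and −0.05 without water replicate 3. Gnaq, the G protein subunit that couples these receptors to phospholipase C, differed by −0.28 and −0.02.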

How the data were processed

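RNA of 3 captopril and 3 water cultures was measured on 1 array each. The spot intensity values were made by the authors with the scanner program Agilent Feature Extraction (the file headers name 11.5.1.1, the submitters' processing notes 10.7), which subtracted background within each array and set the flags used here. The log2 values of the series table were deposited by the authors and the sources used here do not give their steps. Each of its columns had r = 1 with log2 of the processed signal, with 100% of values within 0.01 of a constant, and medians of −3.73, −3.64 and −3.63 for captopril and −3.81, −4.25 and −3.79 for water replicates 2, 3 and 4. Its scale is therefore log2 and its direction that of the signal, while how its centring was set stays unknown. It was used as an alternative.

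Processed signals were put on the log2 scale, the 75th percentile of each array was subtracted, and spots of a probe were averaged. The number of arrays limits the precision. Control spots and 63 probes with an outlier flag on any array were left out. Probes were named through the RefSeq table of assembly GRCm38.p6, and 28919 stayed unnamed. Probe coordinates, which follow another assembly, were not used. A gene was represented by its brightest probe that passed the background flag on 3 or more arrays. The test was limma 3.58.1 (R 4.3.3) with Benjamini-Hochberg adjustment over all 14867 genes, or over all 32387 probes, and a threshold of 0.05. All p are two-sided. The code was tested on simulated data. Plots used Python 3.11.15 with matplotlib 3.10.9.

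The members, lists, named genes and alternatives were chosen with earlier results of these data known. Named were all members with every probe, and of the listed related genes a fixed set, any that passed the threshold, and, after their values were seen, Ren1, Klkb1 and F12. Alternatives were other background correction, scaling, filters, probe rule, variance model, the authors' table, blocks for replicate number and slide row, and single arrays left out. A gene of the lists is not reported here.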

Additional observations from a re-analysis of the deposited data

How the results depend on the processing

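No member gene passed the threshold under any alternative tried, with the smallest adjusted p 0.0884 by limma, for Kng1 without water replicate 3. Over 6 arrays limma called 0 genes under every alternative except without water replicate 3, where it called 92, so that leaving out single arrays gave 0 to 92, and 0 to 91 over all probes. Without water replicate 3, 0 genes were called after quantile normalization (2999 had an unadjusted p under 0.05), with scaling by the array median (3014) and without a filter on dim probes (2846), and 145 where every array used had to be above background. Leaving out a further array gave 0 called genes for captopril replicate 3 (1974 had an unadjusted p under 0.05), captopril replicate 4 (3439), water replicate 2 (1768) and water replicate 4 (1255).

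Signs over 6 arrays turned for Kng1 with the array median (−0.04), for Prcp with the mean of its probes (0.43), and for Anpep, Lnpep and Thop1 with slide row 2 alone or as a block (0.24, 0.18 and −0.10) and without water replicate 3 (0.31, 0.13 and −0.17). Leaving out single arrays gave −0.27 to 0.31 for Anpep, −0.5 to 0.13 for Lnpep and −0.17 to 1.02 for Thop1. Enpep and Nln kept theirs under all alternatives of 6 arrays, at −0.67 to −0.04 and −1.82 to −0.67. Without water replicate 3 throughout, Lnpep turned with normexp (−0.01), with the array median (−0.02) and without captopril replicate 3 (−0.02). Enpep turned without captopril replicate 4 (0.17) or water replicate 4 (0.01), and Prcp and Nln turned without water replicate 4 (0.04 and 0.01). Kng1, at 0.55 to 0.80, Anpep, at 0.15 to 0.38, and Thop1, at −0.33 to −0.10, kept theirs. Scaling by the array median moved the median of all genes by −0.32 over 6 arrays and by −0.15 over 5, where Kng1 stood at 0.55 and the median gene at −0.08. It also moved the share of higher genes at an unadjusted p under 0.05 to 10.1%, against 40.2%, over 6 arrays, and to 31.5%, against 63.3%, over 5. With the replicate number as a block limma called 0 genes and 0 members, and Kng1 stood at 0.28 (limma adjusted p = 0.93). Deviations of same-numbered arrays from their group means correlated at −0.015, 0.022 and −0.192. The water means include water replicate 3, which stands apart, so these values cannot decide whether the numbers pair the samples. The cause of these changes was not tested. Probes near background and the number of arrays limit what could be detected.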
